A study of Homo sapiens with 10 samples.

Results

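Nicotinic acetylcholine receptor subunits were described in 10 Affymetrix U133 Plus 2.0 arrays of 2 human non-small cell lung cancer lines. The subunits were 8 listed genes, CHRNA3, CHRNA5, CHRNA7, CHRNA9, CHRNA10, CHRNB1, CHRNB2 and CHRNB4. Their probe sets were taken from the platform annotation by gene symbol. Of 54675 probe sets, 41091 carried 1 gene symbol, and 12 of these belonged to 7 of the 8 subunits. CHRNA7 had 1 probe set, 210123_s_at, which the annotation assigns to CHRNA7 and CHRFAM7A together. It was set aside from the others and is given below as a shared probe set.

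The lines were A549 and H1650, the second described in the labels as EGFR mutant. Each line had 5 arrays, which were ID1 siRNA with EGF, control siRNA with EGF, ID1 siRNA with nicotine, control siRNA with nicotine, and control siRNA without a stimulus. Serum was withheld from all cells for 48 h, and the stimulated ones then received EGF at 100 ng/ml or nicotine at 1 µM for 18 h, although the labels also give a time of up to 24 h for some experiments. There was 1 array per line and condition, ID1 siRNA was not run without a stimulus, and the siRNA sequences are not given. Whether the arrays represent separate cultures is not stated, so p-values measure only the spread between these arrays, which may be technical. That spread also holds any real difference between the lines in a condition effect, or between the stimuli in the siRNA effect.

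Nicotinic receptors are ion channels of 5 subunits around a cation pore that opens when acetylcholine or nicotine binds. Alpha subunits carry the main face of the agonist site, beta subunits usually complete it, and the subunits present set which receptor is built. Airway epithelium and lung cancer cells are known to express several of them, and CHRNA5, CHRNA3 and CHRNB4 lie next to each other on chromosome 15 in a locus known for its association with smoking and lung cancer. ID1, the siRNA target, is a helix-loop-helix protein without a DNA-binding region that holds back basic helix-loop-helix factors, which bind E-boxes with the letters CANNTG.

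Promoters are shown for CHRNB1, CHRNB2 and CHRNA9 because these subunits were measured here and differ in how many E-box letters they hold. Each sequence is the 250 bases before the gene start in RefSeq GRCh38.p14, read 5′ to 3′ on the gene's strand, with every CANNTG in capitals. CANNTG reads the same on both strands, so 1 search covers both, and its matches may share bases with other motifs.
CHRNB1, chr17:7444811-7445060, plus strand: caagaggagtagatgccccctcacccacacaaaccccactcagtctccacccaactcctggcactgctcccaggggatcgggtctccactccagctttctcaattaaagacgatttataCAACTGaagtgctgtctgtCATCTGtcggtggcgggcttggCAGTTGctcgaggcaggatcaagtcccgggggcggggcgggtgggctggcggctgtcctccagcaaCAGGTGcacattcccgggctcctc
CHRNB2, chr1:154567528-154567777, plus strand: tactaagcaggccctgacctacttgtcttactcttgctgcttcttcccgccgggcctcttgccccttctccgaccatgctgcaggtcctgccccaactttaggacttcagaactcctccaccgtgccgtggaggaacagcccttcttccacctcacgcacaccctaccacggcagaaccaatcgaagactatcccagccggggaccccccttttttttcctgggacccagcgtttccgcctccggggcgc
CHRNA9, chr4:40335083-40335332, plus strand: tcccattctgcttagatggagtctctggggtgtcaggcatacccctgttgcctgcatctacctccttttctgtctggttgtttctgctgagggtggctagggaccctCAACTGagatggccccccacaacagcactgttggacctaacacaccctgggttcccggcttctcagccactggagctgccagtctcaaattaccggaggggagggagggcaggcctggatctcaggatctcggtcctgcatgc
The CHRNB1 window holds 4 matches, CHRNB2 holds 0 and CHRNA9 holds 1. CHRNA10 and CHRNB4 hold 2 each, and CHRNA3 and CHRNA7 hold 1 each, while CHRNA5 was not among the 7 subunits matched. Of 35116 RefSeq promoters of the same length, 61.8% hold at least 1 CANNTG and 3.36% hold 4 or more, with a median of 1. A match is a description of letters and not of binding.

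Signals were linear MAS5 intensities, each array scaled by the authors to a trimmed mean of 500, and array medians ranged from 61.2 to 79.6. The targeted gene was lower in all 4 matched pairs, with a log2 difference between ID1 siRNA and control siRNA of -1.33 ± 0.11 in A549 (limma, adjusted p = 0.000171) and -2.40 ± 0.11 in H1650 (limma, adjusted p = 0.000229). Each cell type marker is given by its brightest probe set. All 5 epithelial markers (EPCAM, KRT8, KRT18, KRT19 and CDH1) were above the array median on all 10 arrays, as were 44.6% of all probe sets with 1 gene. Their signals were not alike in the lines. Limma called all 5 between lines, beside 61.3% of all tested probe sets. As log2 differences, EPCAM (-3.57), CDH1 (-3.37) and KRT19 (-2.04) were lower in A549, and KRT8 (0.47) and KRT18 (0.42) were higher. The KRT18 call was lost without the filter and with quantile normalisation (limma adjusted p = 0.109). CHGA, a neuroendocrine marker that passed the filter only through H1650, was called lower in A549 (-1.28, limma adjusted p = 0.0143). The part of these in the subunit differences between lines was not tested. The leukocyte marker PTPRC and the neuroendocrine marker SYP were above the array median on 0 arrays. Of the other markers, PECAM1 and COL1A1 were above the median on 10 arrays, DCN on 9, CHGA on 4, CD14 on 3 and CDH5 on 2. PTPRC signals ranged from 6.46 to 37.6 in A549 and from 5.24 to 37.1 in H1650. COL1A1, a collagen gene of fibroblasts with 5 probe sets, was tested on the brightest. That probe set rose with ID1 siRNA in A549 by 1.14 ± 0.23 on the log2 scale (limma, adjusted p = 0.00974), where limma called 21.2% of all tested probe sets. KRT19 (0.60, adjusted p = 0.0102) and CDH1 (0.47, adjusted p = 0.0361) were also called higher by limma there, though not after median centring. The part of these 3 in the siRNA results was not tested.

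Of the 8 subunits, 4 were measurable, meaning that a probe set of their own lay above the array median on all arrays of at least 1 line. CHRNA5, CHRNB1 and CHRNB2 met this in both lines and CHRNA9 met it in A549. With the 60th percentile of each array in place of its median, CHRNA5 and CHRNB2 still met this, and CHRNB1 and CHRNA9 did not. CHRNA3 and CHRNA10 were partly measurable, CHRNB4 was not measurable, and CHRNA7 was seen only through the probe set it shares with CHRFAM7A. Among the 12 probe sets, 3 were above the median on all 10 arrays (25.0%, against 44.6% of all probe sets with 1 gene), 5 on 1 to 9 arrays (41.7%, against 24.4%) and 4 on none (33.3%, against 31.0%). The median is a line of description and not a detection call, and a signal below it is not evidence that the RNA was absent. In RNA from a whole culture, fewer cells with a transcript and less of it per cell cannot be told apart.

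**Figure D1:**
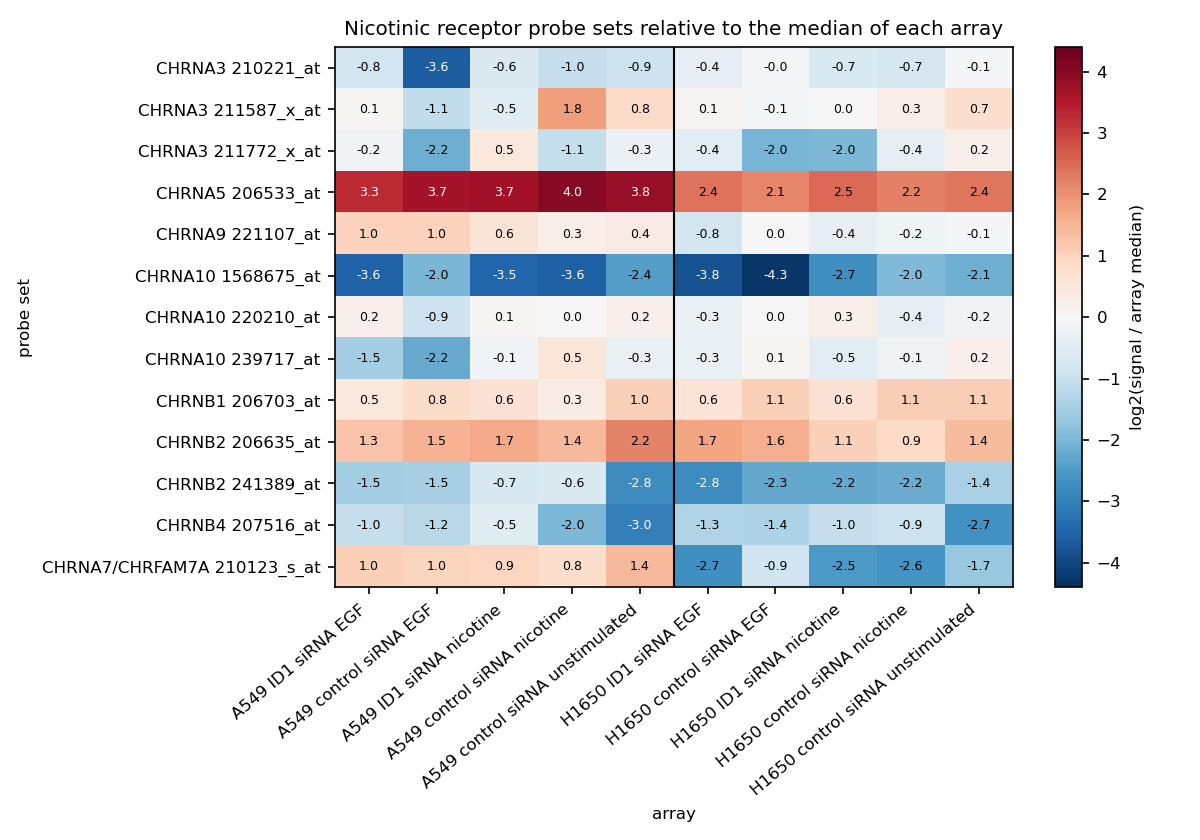
Log2 of signal over the array median (colour and printed value) for the 12 subunit probe sets and the shared CHRNA7/CHRFAM7A probe set (down the page) on the 10 arrays (across, A549 left of the line and H1650 right). CHRNA5 stands at 4.41 to 16.1 times the median on every array, and the shared probe set is above it on the 5 A549 arrays and below it on the 5 H1650 arrays.

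Among the alpha subunits, CHRNA5 encodes an accessory subunit that joins receptors built from other subunits and cannot form an agonist site on its own. Its probe set, 206533_at, had signals of 746 (ID1 siRNA, EGF), 775 (control siRNA, EGF), 1009 (ID1 siRNA, nicotine), 1053 (control siRNA, nicotine) and 938 (unstimulated) in A549. In H1650 the same conditions gave 418, 325, 447, 369 and 376. The lowest A549 array lay above the highest H1650 array, so the lines did not overlap. By mean log2 signal, CHRNA5 stood at the 79.3 percentile of all probe sets.

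CHRNA3, the agonist-binding subunit of the ganglionic receptor, had 3 probe sets that behaved differently from array to array. Signals of 211587_x_at were 79.2, 29.1, 54.2, 231 and 119 in A549 and 86.7, 69.0, 80.5, 98.1 and 123 in H1650, in the same order of conditions. It was above the array median on 3 A549 and 4 H1650 arrays, and its A549 values spread 7.94-fold from lowest to highest. The probe set 211772_x_at ranged from 13.7 to 109 in A549 and from 18.0 to 86.8 in H1650, and was above the median on 1 array of each line. The probe set 210221_at ranged from 5.00 to 50.6 in A549 and from 47.4 to 71.4 in H1650, below the median on all 10 arrays. On the control siRNA, nicotine array of A549, 211587_x_at was at its highest signal while 211772_x_at was at 31.2, its second lowest in that line.

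CHRNA9 and CHRNA10 encode the subunits of the receptor best known from cochlear hair cells. CHRNA9 (221107_at) had signals of 155, 125, 115, 79.0 and 85.1 in A549 and 45.0, 74.9, 62.0, 69.0 and 69.4 in H1650. The lines did not overlap, although the highest H1650 array and the lowest A549 array were 74.9 and 79.0. In H1650, 1 array was above its median. CHRNA10 had 3 probe sets. 220210_at gave 88.8, 32.4, 81.6, 66.8 and 77.6 in A549 and 64.2, 74.7, 95.2, 58.9 and 65.9 in H1650, close to the array median on most arrays. 239717_at ranged from 13.1 to 94.0 in A549 and from 56.2 to 86.3 in H1650, and 1568675_at ranged from 5.46 to 15.1 in A549 and from 3.77 to 20.5 in H1650. The lines overlapped for all 3.

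CHRNA7 encodes the subunit that forms calcium-permeable receptors by itself, and CHRFAM7A is a human fusion gene that holds a partial copy of it. The shared probe set 210123_s_at cannot tell them apart. It had signals of 156, 120, 151, 111 and 179 in A549, against 12.3, 39.9, 13.9, 12.7 and 23.2 in H1650. All A549 arrays were above their medians and all H1650 arrays below theirs, with no overlap.

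Among the beta subunits, CHRNB2 encodes the partner of alpha 4 in the high-affinity brain receptor. Its probe set 206635_at had signals of 182, 178, 251, 177 and 301 in A549 and 263, 222, 165, 145 and 191 in H1650, above the median on all arrays and overlapping between lines. A second CHRNB2 probe set, 241389_at, stayed below the median on all 10 arrays, from 9.80 to 48.3 in A549 and from 11.5 to 27.6 in H1650. CHRNB1, the beta subunit of the muscle receptor, had signals of 104, 107, 123, 82.1 and 136 in A549 and 119, 153, 124, 169 and 155 in H1650 (206703_at). It was above the median on every array and the lines overlapped. CHRNB4, the usual partner of CHRNA3, ranged from 8.30 to 53.6 in A549 and from 11.6 to 41.2 in H1650 (207516_at) and was below the median on all 10 arrays.

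**Figure D2:**
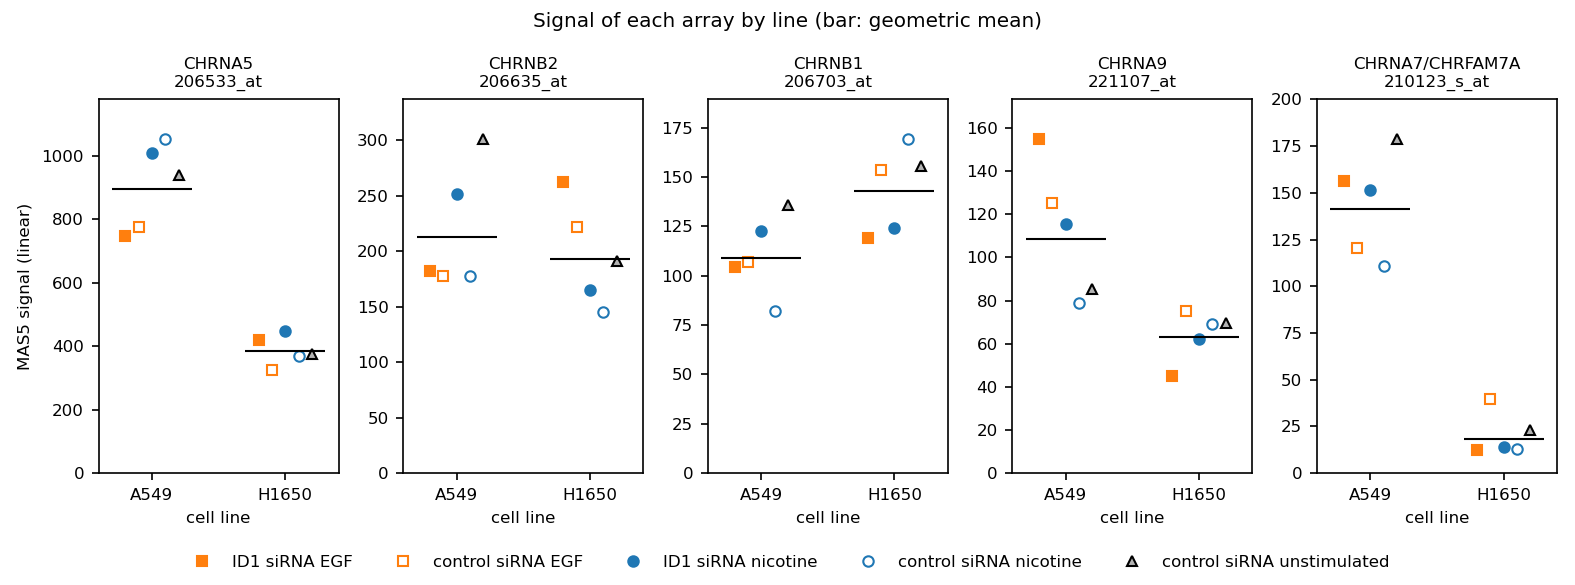
MAS5 signal (linear, from 0) of each array in A549 and H1650 for the 4 measurable subunits and the shared CHRNA7/CHRFAM7A probe set. Symbols mark the siRNA and stimulus, 1 array each, and bars are geometric means of 5 arrays. CHRNA5, CHRNA9 and the shared probe set do not overlap between lines.

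A filter on low signal decided which probe sets were tested across the arrays. Of the 12 subunit probe sets, 6 had a mean log2 signal that reached 6.06, the median over every probe set, as did 56.3% of all probe sets with 1 gene. The tested ones were those of CHRNA5, CHRNB1, CHRNB2 (206635_at), CHRNA9, CHRNA3 (211587_x_at) and CHRNA10 (220210_at). CHRNA10 220210_at was just inside at 6.09 and CHRNA10 239717_at just outside at 5.76. The first reached the filter only through H1650, where its mean log2 signal was 6.14, against 6.04 in A549.

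The comparison of A549 with H1650 asked which subunits differ between the lines over the 5 matched conditions. Of the 6 tested subunit probe sets 2 were called at an adjusted p under 0.05, both higher in A549, where 61.3% of all 23145 tested probe sets were called in either direction, 28.8% as higher and 32.5% as lower. CHRNA5 was 2.33-fold higher in A549, a log2 difference of 1.22 ± 0.12 (limma SE, 95% interval 0.94 to 1.50, adjusted p = 3.64e-05, higher in 5 of 5 conditions). CHRNA9 was called with a log2 difference of 0.78 ± 0.28 (95% interval 0.15 to 1.42, limma adjusted p = 0.0365). It had passed the filter only through A549, where its mean log2 signal was 6.76, against 5.98 in H1650, so that call depends on the filter. Without the filter the difference was 0.78 ± 0.30 and was not called (limma adjusted p = 0.0622). The CHRNA9 call was lost without any 1 of 6 arrays, with limma adjusted p from 0.0721 (without the H1650 control siRNA, EGF array) to 0.131 (without the A549 ID1 siRNA, EGF array). The other 4 were A549 control siRNA with EGF (0.0770), H1650 ID1 siRNA with EGF (0.114), A549 ID1 siRNA with nicotine (0.0876) and H1650 ID1 siRNA with nicotine (0.0832).

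The other tested subunits were not called between lines. CHRNB1 differed by -0.39 ± 0.21 on the log2 scale (95% interval -0.87 to 0.08, limma adjusted p = 0.132) and CHRNB2 by 0.14 ± 0.21 (95% interval -0.34 to 0.62, limma adjusted p = 0.588). CHRNA3 differed by -0.15 ± 0.34 (limma adjusted p = 0.719) and CHRNA10 by -0.11 ± 0.30 (limma adjusted p = 0.772). The intervals leave room for differences in either direction. Signals of the 2 lines did not overlap for 2 of the 6 tested subunit probe sets, against 47.5% of all tested probe sets, and for 2 of all 12, against 31.9% of all probe sets with 1 gene. The median log2 difference of the 6 was 0.02, against -0.06 over all tested probe sets.

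For the shared CHRNA7/CHRFAM7A probe set, a fit added after seeing the data took in probe sets of several genes and used no filter. It called 40% of 42892 probe sets in either direction. The shared probe set was called higher in A549, at least 1.84-fold, since all H1650 arrays were below their medians (log2 difference 2.96 ± 0.38, limma adjusted p = 0.000189). Which of its 2 genes carried the signal was not tested. Without the filter, limma called 1 of the 12 subunit probe sets, that of CHRNA5, where it called 39.9% of 41091. It called 0 of the 6 dim subunit probe sets that the filter had left out (0 at an unadjusted p under 0.05). The share called among all dim probe sets was not counted. The log2 difference of CHRNA3 210221_at was -1.18 ± 0.55 (limma adjusted p = 0.127).

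The ID1 siRNA comparison asked whether lowering ID1 shifts the subunits within each line, with EGF and nicotine arrays as 2 matched pairs per line. In A549 limma called 0 of the 6 subunit probe sets (0 at an unadjusted p under 0.05), where it called 21.2% of all tested probe sets. CHRNA5 signals were 746 with ID1 siRNA and 775 with control siRNA under EGF, and 1009 with ID1 siRNA and 1053 with control siRNA under nicotine, ratios of 0.963 and 0.959. The log2 difference was -0.06 ± 0.13 (95% interval -0.36 to 0.24, limma adjusted p = 0.790). With each array centred on its median it became -0.35, since the array medians themselves were 1.24 times (EGF) and 1.20 times (nicotine) as high with ID1 siRNA, and the median over all tested probe sets moved to -0.20, against 0.08 as deposited.

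Without the filter limma called 0 of the 12 in A549 (2 at an unadjusted p under 0.05), where it called 9.36% of 41091. Those 2 were the other CHRNA3 probe sets, each higher with ID1 siRNA in both pairs. Signals of 210221_at were 42.4 with ID1 siRNA and 5.00 with control siRNA under EGF, and 50.6 with ID1 siRNA and 32.3 with control siRNA under nicotine, all below the array medians (log2 difference 1.87 ± 0.73, limma unadjusted p = 0.0335 and adjusted p = 0.162). Signals of 211772_x_at were 67.6 with ID1 siRNA and 13.7 with control siRNA under EGF, and 109 with ID1 siRNA and 31.2 with control siRNA under nicotine (2.05 ± 0.82, limma unadjusted p = 0.0373 and adjusted p = 0.173).

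The remaining tested subunits in A549 had wider intervals. CHRNB2 differed by 0.27 ± 0.24 (95% interval -0.27 to 0.81), CHRNB1 by 0.27 ± 0.31 (-0.43 to 0.97), CHRNA9 by 0.43 ± 0.37 (-0.41 to 1.27) and CHRNA10 by 0.87 ± 0.47 (-0.20 to 1.95), all on the log2 scale, with limma adjusted p between 0.222 and 0.566. After centring, CHRNB2 and CHRNB1 were at -0.02 and -0.01, and CHRNA9 and CHRNA10 at 0.14 and 0.59. CHRNA3 211587_x_at moved in opposite directions in the 2 pairs, with ID1 siRNA over control siRNA ratios of 2.72 under EGF and 0.235 under nicotine. Its pooled log2 difference was -0.32 ± 0.71 (limma adjusted p = 0.785). Without the A549 ID1 siRNA, EGF array or without the A549 control siRNA, EGF array it was called at -2.09 (limma adjusted p = 0.0451 and 0.0361), and without either A549 nicotine array it was 1.44 and not called. Each of these fits rests on 1 A549 pair, which is assumed to vary like the H1650 pairs.

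In H1650 limma called 0 of the 6 subunit probe sets (1 at an unadjusted p under 0.05, CHRNA5), where it called 10.2% of all tested probe sets. CHRNA5 signals were 418 with ID1 siRNA and 325 with control siRNA under EGF, and 447 with ID1 siRNA and 369 with control siRNA under nicotine. Both pairs were higher with ID1 siRNA, with a log2 difference of 0.32 ± 0.13 (95% interval 0.02 to 0.62, limma adjusted p = 0.165). CHRNB2 differed by 0.21 ± 0.24 (limma adjusted p = 0.643), CHRNB1 by -0.41 ± 0.31 (limma adjusted p = 0.468) and CHRNA9 by -0.45 ± 0.37 (limma adjusted p = 0.512). CHRNA10 and CHRNA3 differed by 0.24 and 0.02 on the log2 scale, neither called. Without the filter limma called 0 of the 12 in H1650 (1 at an unadjusted p under 0.05, CHRNA5), where it called 3.63% of 41091.

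The siRNA effect was also compared between lines, as the A549 difference minus the H1650 difference. ID1 itself was called here at 1.08 ± 0.16 on the log2 scale (limma adjusted p = 0.00555), since it was lowered less in A549. The part of this in the subunit values was not tested. Limma called 0 of the 6 subunit probe sets (0 at an unadjusted p under 0.05), where it called 8.57% of all tested probe sets. The values were -0.38 ± 0.18 for CHRNA5 (95% interval -0.80 to 0.04, limma adjusted p = 0.242), 0.87 ± 0.52 for CHRNA9 (95% interval -0.31 to 2.06, limma adjusted p = 0.330) and 0.68 ± 0.43 for CHRNB1 (limma adjusted p = 0.364). Without the filter it called 0 of the 12 (0 at an unadjusted p under 0.05), beside 2.9% of 41091. Over all 12 subunit probe sets in A549, 7 were higher and 1 was lower with ID1 siRNA in both pairs, against 40.8% and 24.7% of all probe sets with 1 gene. Relative to the array medians these counts were 4 and 2, against 24.2% and 42.1%. In H1650 they were 2 and 4 on either scale, against 31.6% and 29.1% as deposited and 27.5% and 32.8% relative to the array medians.

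**Figure D3:**
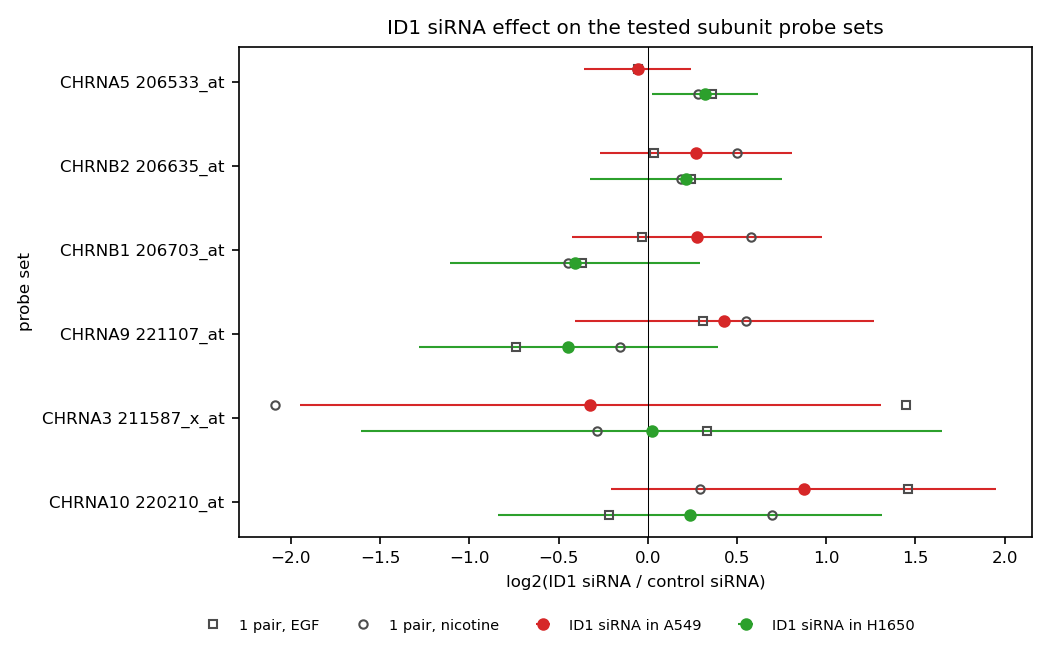
Log2 ratio of ID1 siRNA over control siRNA for the 6 tested subunit probe sets, A549 above H1650 for each. Filled points are limma estimates with 95% intervals and open symbols are single pairs. Every A549 interval spans 0, and in H1650 only the CHRNA5 interval, 0.02 to 0.62 before adjustment, does not.

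EGF and nicotine were compared directly within each line over both siRNAs. In A549 limma called 0 of the 6 subunit probe sets (1 at an unadjusted p under 0.05, CHRNA5), where it called 0.013% of all tested probe sets. CHRNA5 signals were lower with EGF than with nicotine, at 746 with EGF against 1009 with nicotine under ID1 siRNA and 775 with EGF against 1053 with nicotine under control siRNA, ratios of 0.739 and 0.736. The log2 difference was -0.44 ± 0.13 (95% interval -0.74 to -0.14, unadjusted p = 0.00892 and adjusted p = 0.442, limma). Without the filter limma called 0 of the 12 in A549 (2 at an unadjusted p under 0.05), beside 0.00487% of 41091. The second was CHRNA10 239717_at, with signals of 27.0 with EGF and 72.3 with nicotine under ID1 siRNA, and 13.1 with EGF and 94.0 with nicotine under control siRNA. It was lower with EGF under both siRNAs, by -2.13 ± 0.55 on the log2 scale (limma unadjusted p = 0.00494 and adjusted p = 0.530). CHRNA3 211587_x_at differed by -1.22 ± 0.71 (limma adjusted p = 0.605), by -2.99 with a call without the A549 ID1 siRNA array of either stimulus, and by 0.55 without the A549 control siRNA array of either stimulus.

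In H1650 limma called 0 of the 6 subunit probe sets (1 at an unadjusted p under 0.05, CHRNB2), where it called 0.125% of all tested probe sets. CHRNB2 signals were 263 with EGF and 165 with nicotine under ID1 siRNA, and 222 with EGF and 145 with nicotine under control siRNA, ratios of 1.59 and 1.53. The log2 difference was 0.64 ± 0.24 (95% interval 0.10 to 1.18, unadjusted p = 0.0246 and adjusted p = 0.432, limma). CHRNA5 differed by -0.14 ± 0.13 in H1650 (limma adjusted p = 0.835). Without the filter limma again called 0 of the 12 (1 at an unadjusted p under 0.05, CHRNB2), beside 0.00487% of 41091.

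The stimulated control siRNA arrays were compared with the unstimulated ones over both lines, and the EGF and nicotine comparisons share the unstimulated arrays. With EGF, limma called 0 of the 6 subunit probe sets and 0 of all tested probe sets, 0% (1 subunit and 1310 in all at an unadjusted p under 0.05). With nicotine it also called 0 of the 6 and 0 in all, 0% (0 subunits and 459 in all at an unadjusted p under 0.05). CHRNA5 differed by -0.24 ± 0.19 with EGF (95% interval -0.68 to 0.20) and by 0.07 ± 0.19 with nicotine (95% interval -0.37 to 0.51) on the log2 scale. CHRNB2 differed by -0.27 ± 0.34 with EGF and by -0.58 ± 0.34 with nicotine (95% interval -1.35 to 0.18). In A549 both stimulated control siRNA arrays gave CHRNB2 signals near 178, below the 301 of the unstimulated array, while in H1650 the signals were 222 with EGF, 145 with nicotine and 191 without a stimulus.

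Of the 6 tested subunit probe sets, CHRNA3 211587_x_at was the 1 with an unadjusted p under 0.05 for EGF against no stimulus, at -1.43 ± 0.54 on the log2 scale (unadjusted p = 0.0266 and adjusted p = 0.867, limma). Its signal on the A549 control siRNA, EGF array was 29.1, against 119 without a stimulus. Without the filter limma called 0 of the 12 for EGF (2 at an unadjusted p under 0.05) and 0 of the 12 for nicotine (0), beside 0% of 41091 in both. The second for EGF was CHRNA3 211772_x_at, at -2.13 ± 0.81 (limma unadjusted p = 0.0264 and adjusted p = 0.876), with signals of 13.7 with EGF and 54.5 without a stimulus in A549, and 18.0 with EGF and 86.8 without a stimulus in H1650.

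CHRNB4 had signals of 26.4 with EGF, 16.4 with nicotine and 8.30 without a stimulus on the control siRNA arrays of A549, and 28.8, 41.2 and 11.6 in the same order in H1650. The unstimulated array was the lowest of the 5 in each line, and all of these signals lay below their array medians. The log2 differences from no stimulus were 1.49 ± 0.68 with EGF (limma unadjusted p = 0.0562 and adjusted p = 0.879) and 1.40 ± 0.68 with nicotine (limma unadjusted p = 0.0690 and adjusted p = 1.00), neither called.

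The A549 control siRNA, EGF array had the lowest signal of all 10 for 5 of the 12 subunit probe sets, all 3 of CHRNA3 and 2 of CHRNA10, and for 18.0% of all probe sets with 1 gene. It also had the lowest median, 61.2, and the part of this in the result was not tested.

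**Figure D4:**
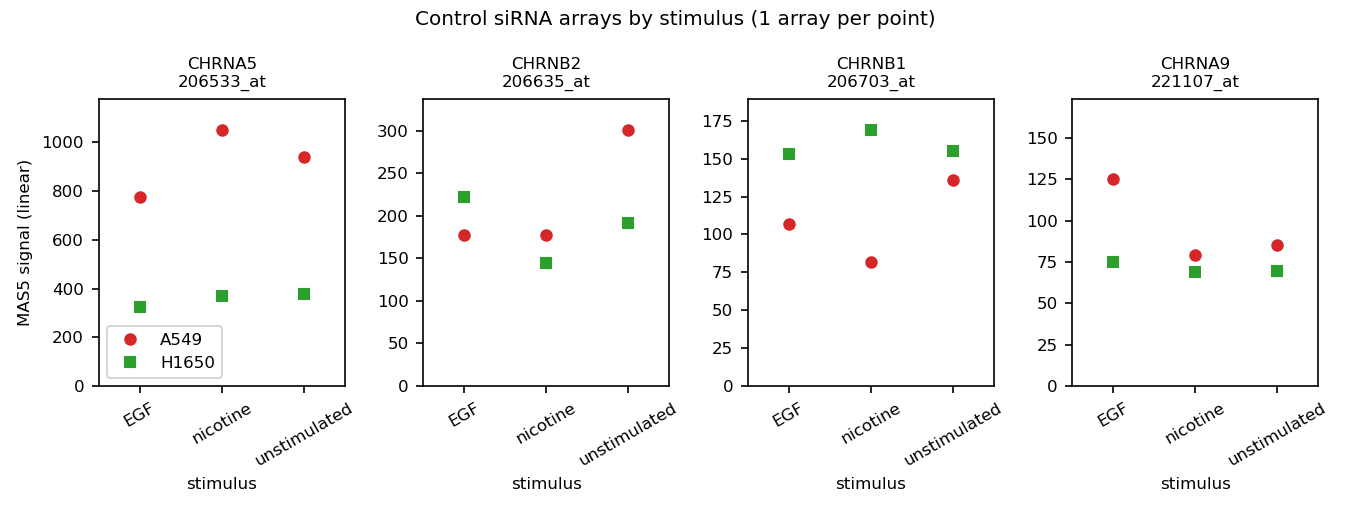
MAS5 signal (linear, from 0) of the control siRNA arrays with EGF, nicotine or no stimulus for the 4 measurable subunits, 1 array per point. CHRNA5 is higher in A549 than in H1650 under each stimulus, and CHRNB2 changes its order of lines between stimuli.

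After each line's mean was subtracted, the probe sets whose log2 signals over the 10 arrays were most like CHRNA5 among 23145 were those of DHRS13 (Pearson r = 0.95, Spearman rho = 0.92), FAHD1 (r = 0.94, rho = 0.93) and VPS13B (r = 0.93, rho = 0.98). These values are the highest of many, and the arrays share line, stimulus and scaling.

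Other nicotinic subunits were listed as 8 genes, of which 7 had 10 probe sets of their own. CHRNA2, an alpha subunit of brain receptors, ranged from 123 to 174 in A549 and from 107 to 143 in H1650, above the median on all 10 arrays. CHRNG, the subunit of the fetal muscle receptor, ranged from 68.7 to 133 in A549 and from 91.5 to 145 in H1650, also above it on all arrays. CHRNA1 was above it on none, and CHRNA6, CHRNE, CHRNB3 and CHRND had a probe set above it on 4, 3, 1 and 1 arrays. Limma tested CHRNA2 and CHRNG, and 0 of these 2 were called in any comparison. Of all tested probe sets it called 61.3% between lines, and 21.2% in A549 and 10.2% in H1650 for ID1 siRNA. It called 0% for either stimulus against none, so a count of 0 there is not particular to these 2. Their lowest adjusted p was 0.0869, for CHRNG with ID1 siRNA in A549 (log2 difference 0.84 ± 0.31).

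Genes for receptor assembly and Ly6-type modulators, which fold next to or bind nicotinic receptors, were listed as 13, and 6 were tested. All 6 were called between lines by limma, 3 higher and 3 lower in A549, beside 61.3% of all tested probe sets, and with median centring YWHAH, 1 of the lower ones, was not called (limma adjusted p = 0.126). LYPD1 passed the filter only through A549 and LYPD6B only through H1650, and both were also called without it. LYPD1, a Ly6-type protein that restrains nicotinic receptors, ranged from 232 to 715 in A549 and from 13.9 to 68.2 in H1650, at least 5.73-fold higher in A549. LYPD6B, another Ly6-type modulator, ranged from 14.3 to 44.9 in A549 and from 281 to 605 in H1650, at least 6.15-fold higher in H1650. LYNX1, a membrane-anchored relative, was lower in A549 by 1.34 ± 0.14 on the log2 scale, and UBQLN1, which binds subunits before assembly, was higher by 0.45 ± 0.10. No gene of this list was called by limma for ID1 siRNA, beside 21.2% of all tested probe sets in A549 and 10.2% in H1650. None was called for a stimulus either, beside at most 0.125% of all tested probe sets.

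Genes for acetylcholine handling were listed as 10, and limma called the 3 tested as lower in A549, beside 32.5% of all tested probe sets called lower. SLC44A2 and PRIMA1 had passed the filter only through H1650, so the count depends on it, although both were also called without it (adjusted p = 5.09e-08 and 0.00129). SLC44A2, a choline transporter-like protein, had the widest gap, with a log2 difference of -6.20 ± 0.20 and signals from 33.3 to 86.5 in A549. PRIMA1, the membrane anchor of acetylcholinesterase, ranged from 44.8 to 60.8 in A549 and from 112 to 233 in H1650, at least 2.24-fold higher in H1650. SLC44A1, another choline transporter-like protein, differed by -0.81 ± 0.09. CHAT, which makes acetylcholine, and its vesicle and choline transporters SLC18A3 and SLC5A7 were above the median on 0 arrays. None of the 5 muscarinic receptor genes was tested, and 3 of them were above the median on no array.

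Neighbours of the chromosome 15 cluster were listed as 6 genes, and 4 were tested and called between lines by limma, where it called 61.3% of all tested probe sets. HYKK (0.82 ± 0.26), PSMA4 (0.67 ± 0.11) and MORF4L1 (0.43 ± 0.13) were higher in A549, as CHRNA5 was, while CTSH, the cathepsin H gene, was lower (-4.23 ± 0.11, log2). The MORF4L1 call was lost with quantile normalisation (limma adjusted p = 0.0802). PSMA4, a proteasome subunit gene, lies next to CHRNA5 on chromosome 15. For ID1 siRNA in A549 limma called 1 of the 4 higher and 1 lower, beside 21.2% of all tested probe sets in either direction. In H1650 it called 0 of the 4, beside 10.2%. With ID1 siRNA in A549, HYKK and PSMA4 were not called. There CTSH rose by 0.54 ± 0.11 (limma adjusted p = 0.0106) and MORF4L1 fell by 0.47 ± 0.14 (limma adjusted p = 0.0409). The CTSH call was lost with quantile normalisation (limma adjusted p = 0.0810) and median centring (0.124), and the MORF4L1 call with quantile normalisation (0.253).

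Signalling genes reported downstream of nicotinic receptors in lung cells were listed as 12, and 7 were tested. Limma called 4 between lines, where it called 61.3% of all tested probe sets. The tyrosine kinase gene SRC was higher in A549 (1.67 ± 0.18), and EGFR (-2.34 ± 0.10), the beta-adrenergic receptor gene ADRB1 (-0.75 ± 0.16) and the beta-arrestin gene ARRB1 (-0.38 ± 0.14) were lower, all on the log2 scale. The ARRB1 call was lost with quantile normalisation (limma adjusted p = 0.106), median centring (0.271) and no filter (0.0542). For ID1 siRNA limma called 2 of the 7 in A549, beside 21.2% of all tested probe sets, and 1 of the 7 in H1650, beside 10.2%. With ID1 siRNA, ADRB1 rose by 0.84 ± 0.17 (limma adjusted p = 0.00976) and STAT3 by 0.55 ± 0.10 (limma adjusted p = 0.00796) in A549. In H1650 ARRB1 rose by 0.70 ± 0.15 (limma adjusted p = 0.0209). These are gene by gene results, and the list was not tested as a set. With centring STAT3 was at 0.26 and not called (limma adjusted p = 0.129). None of the 7 was called for EGF against nicotine, beside 0.013% of all tested probe sets in A549 and 0.125% in H1650. The difference of the siRNA effect between lines was also called for none of them, beside 8.57%.

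**Figure D5:**
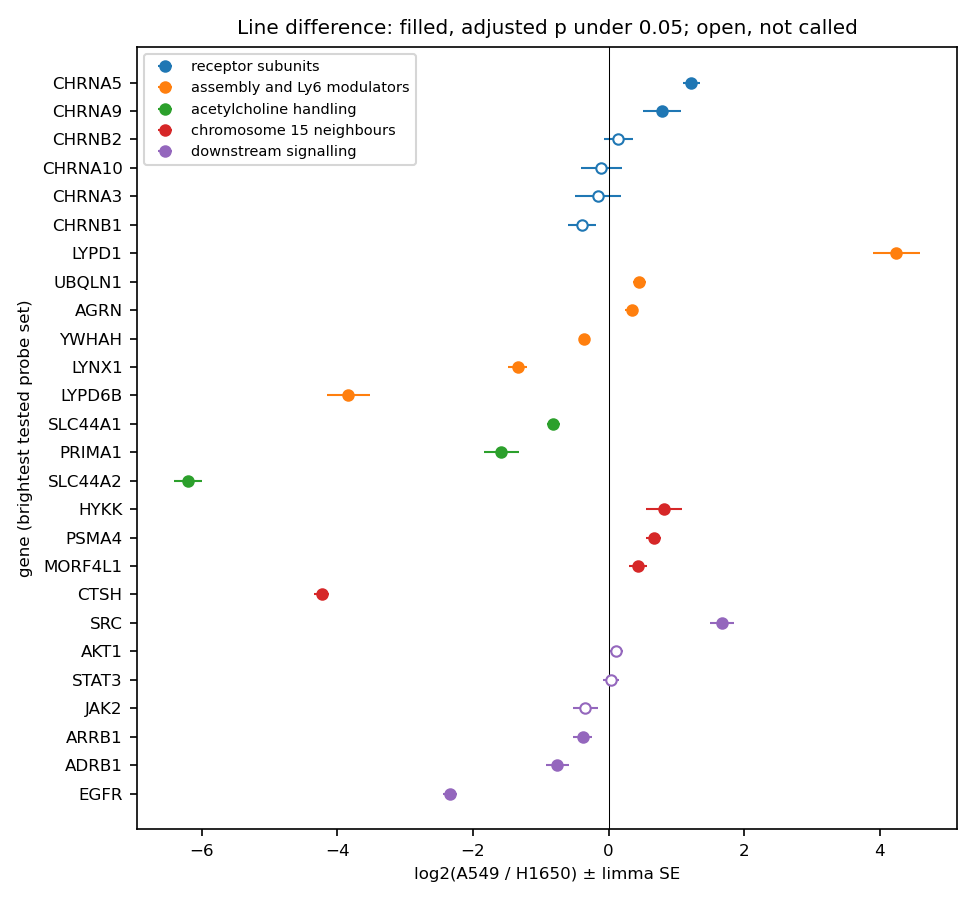
Log2 difference of A549 over H1650 with limma SE for the brightest tested probe set of each subunit and of each tested gene in 4 related lists. Filled points passed an adjusted p under 0.05. Among the subunits CHRNA5 (1.22) and CHRNA9 (0.78) are filled, and the CHRNA9 call depends on the filter on low signal.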

How the data were processed

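RNA of 10 samples treated as described was hybridised to Affymetrix U133 Plus 2.0 arrays. The deposited values are linear signal intensities, for which the submitters' processing notes name GCOS 1.4 and MAS5 as the authors' tools. The labels mention log2 values, but the deposited intensities are linear, so log2 was taken here. The members, the gene lists and the tests were chosen with earlier results of these data known.

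Of 54675 probe sets, 62 controls, 1801 with several genes and 11721 without an annotated gene were left out. Tests took the 23145 probe sets with 1 gene whose mean log2 signal reached the median over every probe set (6.06, a signal of 66.7). They were run with limma 3.58.1 in R 4.3.3, with an intensity trend and Benjamini-Hochberg adjustment over all of them. Adjusted p under 0.05 counts as a call. Line and 5 conditions were fitted to all 10 arrays (4 residual degrees of freedom). ID1 siRNA within line and EGF against nicotine were fitted to the 8 stimulated arrays with 4 line-by-stimulus pairs as blocks (2 residual degrees of freedom). Both lines share that residual, so pairs that disagree in 1 line widen the SE of the other. Errors are limma SEs on the log2 scale. Every subunit probe set is named, as is any listed gene that passed, up to 4 per list and comparison by size of change. For markers and genes of the other lists, test results and signals are those of the brightest probe set of each gene. Alternatives were quantile normalisation, median centring, an added 16 before log2, 2 other filters, 1 probe set per gene, no intensity trend and leaving out each array. The statistics were tested on simulated data, where many small changes were missed. For ID1 siRNA in A549, 4.48% of simulated 1.5-fold, 43.3% of 2-fold and 83.3% of 4-fold changes were called in the right direction. For A549 against H1650 these were 11.9%, 64.2% and 95.5%, and for EGF against nicotine in H1650 7.46%, 53.7% and 75.8%. The number of arrays limits the precision.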

Additional observations from a re-analysis of the deposited data

Results flagged for a closer look

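CHRNA5 206533_at was lower with ID1 siRNA in both A549 pairs and higher in both H1650 pairs. The share of all probe sets with such opposite signs is not given. The A549 ratios were 0.963 with EGF and 0.959 with nicotine. Their log2 difference was -0.06 ± 0.13, smaller than its SE (limma adjusted p = 0.790). With median centring it was -0.35, also not called (limma adjusted p = 0.0823). In H1650 the log2 difference was 0.32 ± 0.13, not called either (limma adjusted p = 0.165). The A549 minus H1650 difference was -0.38 on the log2 scale. The limma test of that difference gave an adjusted p of 0.242, so it did not pass. ID1 itself was lowered less in A549 than in H1650 (log2 differences -1.33 and -2.40).

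As deposited, CHRNA9 221107_at was higher with ID1 siRNA in both A549 pairs (ratios 1.24 with EGF and 1.46 with nicotine). It was lower in both H1650 pairs (0.600 and 0.899), with an A549 minus H1650 difference of 0.87 on the log2 scale. The limma test of that difference gave an adjusted p of 0.330, so it did not pass either. Relative to the array medians, the A549 EGF pair was level, at 2.041 with ID1 siRNA and 2.043 with control siRNA. Median centring moved the A549 log2 difference from 0.43 to 0.14, and the difference between lines to 0.64.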

How the results depend on the processing

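By the mean signal over 10 arrays rather than all arrays singly, 6 subunit probe sets rather than 3 lay at or above the median. Above the 40th percentile on all arrays there were 3, and above the 60th there were 2, those of CHRNA5 and CHRNB2. On the A549 control siRNA, nicotine array the 60th percentile was 123, against 82.1 for CHRNB1 and 79.0 for CHRNA9. Without the filter, and in the fit added after seeing the data with probe sets of several genes, 1 of the tested subunits with a gene of its own (CHRNA5) was called between lines rather than 2, and leaving out 1 array gave 1 to 2. Leaving out 1 array gave 0 to 1 calls for ID1 siRNA in A549 and 0 to 1 for EGF against nicotine in A549, in each case CHRNA3 211587_x_at. CHRNA5 between lines was called under all 18 alternatives (1.15 to 1.38, log2) and CHRNA9 under 10 of 18 (0.53 to 0.94). Of 384 subunit values under other settings, 382 kept their side of the threshold and any called direction, and 2 lost the call. Of 480 with 1 array left out, 470 did, 6 lost the call and 4 gained one. Most of these values were not called in the main fit, so keeping their side of the threshold says little about the estimates. Values that stayed uncalled changed sign in 9 cases under other settings and in 39 with 1 array left out.

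Over all probe sets, calls for ID1 siRNA in A549 were 2946 higher and 1960 lower, and 1524 and 5745 with median centring. Between lines they were 6675 higher and 7519 lower in A549, and 7967 and 5968 with centring. Without the intensity trend limma called 1738 rather than 4906 for ID1 siRNA in A549, 0 rather than 2372 in H1650, and 226 rather than 1984 for the difference, which centring put at 3122. Without the filter these were 1490 in H1650 and 1192 for the difference. CHRNB4 and other probe sets below the array median were given values without the filter, with SEs of 0.43 to 1.31 on the log2 scale.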
